A study of Homo sapiens with 16 samples.

Results

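The cells described here are DR A375 cells 24 h after 2 drugs were taken away, set against DR A375 cells still on them. DR A375 is a derivative of A375, a human melanoma line with activated BRAF, that had become resistant to dabrafenib and trametinib. The off-drug cells had been in DMSO for 24 h, and the on-drug cells were in 0.5 µM dabrafenib, which inhibits BRAF, with 0.05 µM trametinib, which inhibits MEK. Each group has 2 libraries, so the comparison uses 4 of the 16 RNA-seq libraries of the series, picked by the labels for cell line and time. The test was fitted on all 8 libraries of DR A375, which also include 2 at 6 h and 2 at 48 h off drug, so that all 4 groups share 1 estimate of the spread. The other 8 libraries are from 451Lu BR, a second resistant melanoma line, and enter 1 comparison at the end. The cells are called A375 and 451Lu from here on. The labels do not say whether the resistant line is 1 clone, or whether separate cultures lie behind the 2 libraries of each group. The p-values therefore reflect the spread between these samples alone, which may be technical. No on-drug library was taken 24 h after the others, so withdrawal and 24 h in culture cannot be told apart.

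In cells with activated BRAF the kinases BRAF, MEK and ERK act in a chain, and active ERK enters the nucleus, where it phosphorylates ETS and serum response factors and stabilises AP-1 proteins. Immediate-early genes answer first, and feedback phosphatases, secreted growth factors and cell cycle genes follow. In melanocytes the same pathway also acts on MITF, the factor that runs the pigment programme, and strong ERK activity lowers it.

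The 24 h libraries held 16691725 and 12156938 counts, and the on-drug libraries 15146068 and 12889659 counts. Mitochondrially encoded genes took 3.699% and 3.558% of counts at 24 h, against 5.527% and 4.81% on drug. The lineage was that of the labels: all 8 melanocyte lineage markers were above the filter in these cells, and they summed to 32505 and 23789 counts at 24 h. On drug the same 8 summed to 91694 and 80904 counts, and 6 of the 8 were lower at 24 h. Markers of other cell types were low. The keratinocyte markers KRT1 and KRT19 had 0 counts in all 4 libraries, and EPCAM had 1 count in all. The 6 leukocyte markers measured summed to 32 and 17 counts at 24 h, against 66 and 47 on drug, the 4 endothelial ones to 6 and 14 counts at 24 h, against 26 and 24 on drug, and the 4 muscle ones to 7 and 3 counts at 24 h, against 11 and 8 on drug. The 7 fibroblast markers measured summed to 122 and 119 counts at 24 h, against 438 and 383 on drug, most of it from LUM. The 6 keratinocyte and epithelial markers measured summed to 1155 and 822 counts at 24 h, against 779 and 638 on drug, most of it from KRT10 and KRT18. The 4 Schwann cell markers, which melanoma cells also transcribe, summed to 3085 and 2244 counts at 24 h, against 15424 and 13035 on drug, and 3 of the 4 were lower. The markers CD3E, CD3D, MS4A1, KRT5, KRT14, CDH5, CLDN5 and DPT were not analysed here. The part of these marker levels in the results below was not tested.

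At 24 h the secreted-factor genes AREG, INHBA, LIF, IL11, CXCL8 and VGF were among the 20 genes with the largest rises by the rule for named genes, and the pigment genes TYRP1 and SLC24A5 were among the 20 with the largest falls. Levels are CPM, each gene's count relative to its library's total, corrected for library composition. A gene was called where the adjusted p of edgeR's quasi-likelihood test was at most 0.05 over the 14449 genes tested. There were 5234 genes higher at 24 h, 36.2% of those tested, and 5252 lower, 36.3%, so 72.6% in all were called. Each count of list members higher or lower than on drug is to be read beside these shares of all genes. These counts leave out members below the filter, and a member silent on drug passes the filter only where it is high. Both directions are relative to the other genes, since the median log2 fold change was -0.02, and bulk RNA cannot tell fewer cells of a kind from less RNA per cell. The table's coordinates place 62 of the 264 tested genes named in the text over another tested gene, and since the strand used in counting is not given in the sources used here, reads of such pairs may be shared. Of the genes called, 1414 were at least 2-fold higher and 1877 at least 2-fold lower, and 184 were at least 16-fold higher, against 59 at least 16-fold lower. The genes at least 4-fold higher took 6.935% and 6.78% of all counts at 24 h, against 0.836% and 0.8197% on drug. The plot of mean levels shows the red points spread far above the line, many of them from levels near 0 on drug.

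**Figure D1:**
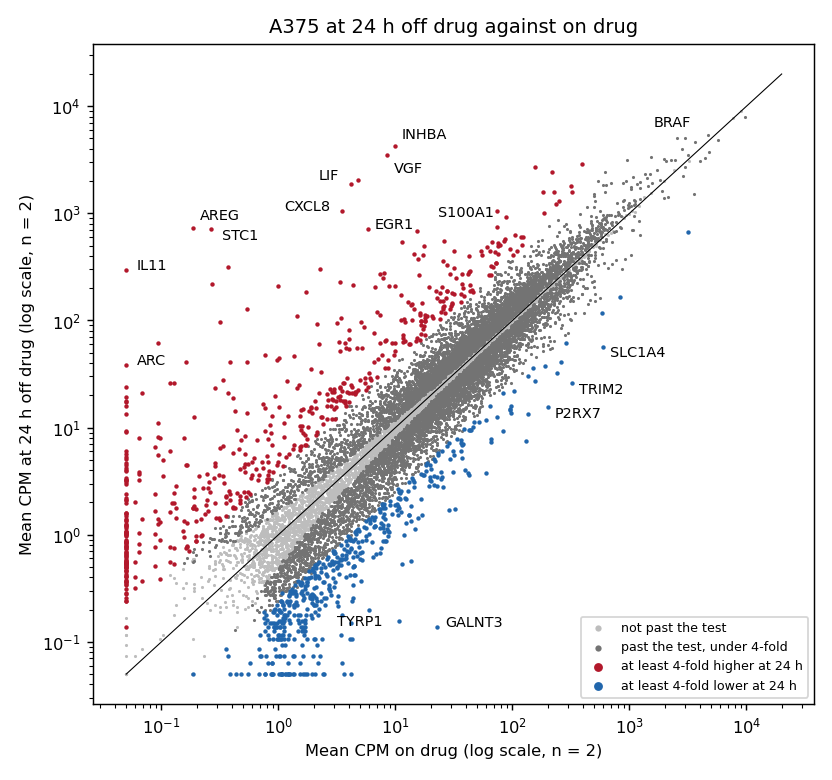
Each point is 1 of 14449 genes, with its mean CPM on drug across and at 24 h off drug upward, both on log scales (n = 2 libraries each), and means under 0.05 CPM drawn at 0.05. Red and blue points passed the test with at least 4-fold change, 534 higher and 493 lower at 24 h, and BRAF lies close to the line of equal levels.

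The feedback arm of the ERK pathway was mostly higher at 24 h. Of 22 ERK phosphatases and feedback inhibitors, all tested, 15 were higher and 5 lower, with a median log2 fold change of 1.85. IER3 (ENSG00000137331, chromosome 6, 30743199 to 30744554), which encodes an early-response protein that prolongs ERK activity, had 727 and 646 CPM at 24 h off drug, against 15.9 and 14.8 CPM on drug. The libraries of the 2 groups did not overlap, which held for 86.2% of all genes tested, and the log2 fold change was 5.48 ± 0.07 (SE) with adjusted p = 3.43e-37 in edgeR's test. DUSP5, a nuclear phosphatase that acts on ERK, had 261 and 237 CPM at 24 h, against 7.61 and 8.16 CPM on drug. DUSP4, another nuclear phosphatase, had 358 and 324 CPM at 24 h, against 73.9 and 71.5 CPM on drug, and DUSP1, which also acts on the stress kinases, rose 15.5-fold. SPRY2 and SPRY1, which encode Sprouty inhibitors of receptor signalling, rose 3.67-fold and 5.25-fold. TRIB1, a pseudokinase gene, rose 3.52-fold, and PHLDA1 rose 5.25-fold to 1252 and 1217 CPM. Some members of this list were lower. SPRED1 and SPRED2, which recruit neurofibromin to RAS, had log2 fold changes of -0.37 ± 0.07 and -0.30 ± 0.05. DUSP16, a phosphatase of JNK, had a log2 fold change of -0.82 ± 0.06, and ERRFI1, an inhibitor of the EGF receptor, did not pass the test, with 39.7 and 37.6 CPM at 24 h, against 35.9 and 36.6 CPM on drug.

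Among 30 genes of the RAS, RAF, MEK and ERK cascade 13 were higher and 10 lower, beside 36.2% and 36.3% of all genes, with a median log2 fold change of 0.09. BRAF (ENSG00000157764, chromosome 7, 140719327 to 140924764), the target of dabrafenib, had 5402 and 5492 CPM at 24 h off drug, against 4756 and 4664 CPM on drug. That was a log2 fold change of 0.21 ± 0.04. MAP2K1, which encodes MEK1, had 216 and 213 CPM at 24 h, against 82.8 and 77.7 CPM on drug, so its 2 groups did not overlap. MAP2K2, which encodes MEK2, went the other way, with 142 and 127 CPM at 24 h, against 153 and 153 CPM on drug, but its call was lost without 24 h replicate 2 (adjusted p = 0.157), in the fit of all 16 libraries and with DESeq2. RPS6KA3 and RPS6KA1, which encode the ERK-activated kinases RSK2 and RSK1, rose 3.43-fold and 2.98-fold, while RPS6KA2 fell 2.101-fold. HRAS and NF1 did not pass the test, with log2 fold changes of 0.12 ± 0.08 and 0.07 ± 0.06.

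Immediate-early transcription factors formed the next layer. Of 37 immediate-early and ETS factors tested (1 more was below the filter), 30 were higher and 6 lower, with a median log2 fold change of 1.22. EGR1 (ENSG00000120738, chromosome 5, 138465490 to 138469315), a zinc finger factor induced within minutes of ERK activation, had 736 and 684 CPM at 24 h off drug, against 5.72 and 5.90 CPM on drug. Its log2 fold change was 6.93 ± 0.07, and the groups did not overlap. The stretch before its start site is shown because it holds 2 matches to the serum response element, which begin 105 and 83 bases upstream and are in capitals. The element was searched on both strands as CC, then 6 bases of A or T, then GG. A match stands in 1.285% of the 27305 RefSeq promoter stretches of 300 bases (250 before to 50 after a start) that were searched, and it is a description of the sequence only. The 250 bases before the start are RefSeq's, from GRCh38.p14 at chr5:138465229-138465478, plus strand.
EGR1: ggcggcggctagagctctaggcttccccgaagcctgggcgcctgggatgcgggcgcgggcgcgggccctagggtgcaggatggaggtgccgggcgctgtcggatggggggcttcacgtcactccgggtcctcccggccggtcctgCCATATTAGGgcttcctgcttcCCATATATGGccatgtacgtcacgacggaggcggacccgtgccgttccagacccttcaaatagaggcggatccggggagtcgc

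The other EGR genes moved with it: EGR3 had 275 and 269.96 CPM at 24 h, against 8.20 and 6.65 CPM on drug. EGR2 had 14.6 and 16.3 CPM at 24 h, against 2.18 and 1.65 CPM on drug, and EGR4 had 1.26 and 0.856 CPM at 24 h, against 0 and 0.0686 CPM on drug. The orphan nuclear receptor gene NR4A1 rose 23.7-fold to 433 and 384 CPM, and NR4A3 rose 5.27-fold. MYC, the growth regulator, had 335 and 304 CPM at 24 h, against 95.1 and 90.5 CPM on drug, a log2 fold change of 1.78 ± 0.05. KLF5, a Krüppel-like factor gene, rose 8.62-fold, and IER2 rose 6.43-fold. FOS itself rose 2.24-fold, to 15.9 and 17.2 CPM, beside 22.5-fold for FOSB and 8.70-fold for FOSL1. The AP-1 partners JUN and JUND were lower, at -0.29 ± 0.07 and -0.30 ± 0.07 on the log2 scale (JUND not with DESeq2), and so were ATF3 at -0.90 ± 0.09 and ETS1 at -0.71 ± 0.05. The PEA3 factors, known ERK-dependent ETS genes, moved apart. ETV4 had 139.7 and 135 CPM at 24 h, against 58.5 and 53.4 CPM on drug. ETV1 had a log2 fold change of 0.20 ± 0.06, and ETV5 had 82.5 and 76.8 CPM at 24 h, against 153 and 156 CPM on drug. At 6 h ETV5 had 43.8 and 45.1 CPM, below its level at 24 h by the test between those times.

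Ligands of the EGF family were the first secreted group. AREG (ENSG00000109321, chromosome 4, 74445134 to 74455009), which encodes amphiregulin, a ligand of the EGF receptor, had 742 and 731 CPM at 24 h off drug, against 0.236 and 0.137 CPM on drug. Its log2 fold change was 11.85 ± 0.12. A copy of the cAMP response element TGACGTCA begins 65 bases before its start, in capitals in the stretch printed here, and the same 8 letters stand in 1.978% of the promoters searched. The bases are RefSeq's, GRCh38.p14, chr4:74444886-74445135, plus strand.
AREG: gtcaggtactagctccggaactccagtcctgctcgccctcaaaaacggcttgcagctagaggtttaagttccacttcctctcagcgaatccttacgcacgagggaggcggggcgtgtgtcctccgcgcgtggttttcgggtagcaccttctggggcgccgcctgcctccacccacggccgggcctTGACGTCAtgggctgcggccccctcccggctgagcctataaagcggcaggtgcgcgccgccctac

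HBEGF, a second ligand of the EGF receptor, had 47.1 and 47.5 CPM at 24 h, against 9.62 and 9.67 CPM on drug. TGFA had 100.3 and 97.5 CPM at 24 h, against 56.1 and 52.5 CPM on drug, so both rose, by 4.90-fold and 1.82-fold. The receptors EGFR and ERBB3 fell. ERBB3, which pairs with ERBB2 on binding neuregulin, had 154 and 158 CPM at 24 h, against 456 and 456 CPM on drug. EGFR had 18.98 and 16.9 CPM at 24 h, against 36.8 and 34.98 CPM on drug. ERBB2 had 64.3 and 61.1 CPM at 24 h, against 56.1 and 55.8 CPM on drug, a rise whose call was lost without either on-drug library, without 24 h replicate 1 (adjusted p = 0.122) and with DESeq2. In the list of 13 genes tested (4 more were below the filter), 6 were higher and 4 lower, beside 36.2% and 36.3% of all genes. Its median was 0.00, and 3 were higher with DESeq2.

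Cytokines and chemokines included several of the largest rises. Of 41 in the table, 20 were below the filter on counts, and of the 21 tested 19 were higher and 1 lower, with a median log2 fold change of 4.76. A gene that is silent on drug passes such a filter only where it is high, so these 21 are not all the cytokines. IL11 (ENSG00000095752, chromosome 19, 55364389 to 55370463), which encodes a secreted relative of interleukin 6, had 304 and 289 CPM at 24 h off drug, against 0 and 0 CPM on drug. With 0 counts on drug, its rise was at least 3128-fold, taking a floor of 3 counts for the on-drug pair of libraries. LIF, of the same family, had 2067 and 2002 CPM at 24 h, against 4.96 and 4.60 CPM on drug, a log2 fold change of 8.73 ± 0.07. CLCF1, a further secreted ligand of that family, had 40.5 and 41.6 CPM at 24 h, against 0.590 and 0.480 CPM on drug. Among receptor genes of the interleukin 6 family, IL6ST, LIFR and OSMR did not rise, and the other receptor genes listed are not given here. IL6ST, the signalling receptor that IL11, LIF and CLCF1 share, had 161 and 177 CPM at 24 h, against 257 and 255 CPM on drug. LIFR and OSMR did not pass the test, at 0.05 ± 0.07 and 0.07 ± 0.05. STAT3, the factor the receptors activate, had 170.4 and 167 CPM at 24 h, against 309 and 301 CPM on drug, and its feedback inhibitor SOCS3 did not pass the test, with 6.54 and 5.48 CPM at 24 h, against 5.90 and 6.997 CPM on drug. PIM1 and PIM3, kinase genes that STAT factors are known to activate, rose 5.60-fold and 6.53-fold. Over the 18 genes of this receptor and STAT3 list tested, 9 were higher and 4 lower, with a median of 0.24, and 2 were lower without on-drug replicate 2 and with DESeq2.

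IL24, a cytokine of the interleukin 10 family, had 209.7 and 227 CPM at 24 h, against 0.472 and 0.0686 CPM on drug, a log2 fold change of 9.53 ± 0.14. That value rests on few on-drug counts: leaving out on-drug replicate 1 gave 11.44, and leaving out replicate 2 gave 8.82. IL33, an alarmin of the interleukin 1 family, had 492 counts in all at 24 h and 1 on drug, a ratio of 562 (counting interval 100.4 to 22244). CXCL8 (ENSG00000169429, chromosome 4, 73740506 to 73743716), which encodes interleukin 8, a neutrophil attractant, had 1099 and 1017 CPM at 24 h off drug, against 3.54 and 3.43 CPM on drug. CXCL1 and CXCL3, its close relatives, reached 1.51 and 1.28 CPM and 1.76 and 2.22 CPM at 24 h. IL12A rose 15.8-fold, and the chemokine gene CCL20 had 3.58 and 3.85 CPM at 24 h, against 0.354 and 0.137 CPM on drug. IL1B, which encodes interleukin 1 beta, had 2.70 and 3.76 CPM at 24 h, against 0.0590 and 0 CPM on drug. The promoters of IL11 and CXCL8 are printed because each holds the AP-1 site TGANTCA, in capitals. It begins 96 bases before the start of IL11 and 137 bases before that of CXCL8. The letters TGANTCA stand in 7.764% of the promoters searched. The IL11 stretch is chr19:55370464-55370713, minus strand, read 5′ to 3′ on that strand, and the CXCL8 stretch is chr4:73740319-73740568, plus strand, both from RefSeq on GRCh38.p14.
IL11: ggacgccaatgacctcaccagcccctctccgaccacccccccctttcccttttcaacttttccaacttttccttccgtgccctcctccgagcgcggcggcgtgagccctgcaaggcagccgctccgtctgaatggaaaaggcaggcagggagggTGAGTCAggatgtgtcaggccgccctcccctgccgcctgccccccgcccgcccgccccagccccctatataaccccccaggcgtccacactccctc
CXCL8: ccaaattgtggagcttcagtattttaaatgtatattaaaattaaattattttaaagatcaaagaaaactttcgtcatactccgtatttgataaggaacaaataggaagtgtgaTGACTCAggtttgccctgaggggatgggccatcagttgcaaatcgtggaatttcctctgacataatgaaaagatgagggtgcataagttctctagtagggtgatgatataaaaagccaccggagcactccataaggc

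Genes of the NF-kB pathway, which drives CXCL8 in many cells, were higher in 13 of 19 cases and lower in 2, with a median of 0.54. 1 was lower without on-drug replicate 1, without on-drug replicate 2, without 24 h replicate 2 or in the fit of all 16 libraries, and 0 with DESeq2. TRAF1, an adaptor of tumour necrosis factor receptors, had 1689 counts at 24 h and 3 on drug, a ratio of 643 (counting interval 219.7 to 3122). TNFAIP3, which encodes the inhibitor A20, had 83.7 and 78.1 CPM at 24 h, against 4.54 and 3.50 CPM on drug. NFKB2, RELB and NFKBIZ rose 4.88-fold, 4.04-fold and 4.04-fold. NFKBIA, the usual immediate target, did not pass the test, with 10.7 and 8.04 CPM at 24 h, against 8.67 and 8.99 CPM on drug, and RELA was lower at -0.19 ± 0.06 on the log2 scale, a call lost without on-drug replicate 1 or 24 h replicate 2, in the fit of all 16 libraries and with DESeq2.

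Other secreted growth factors were mostly higher. INHBA (ENSG00000122641, chromosome 7, 41685114 to 41703108), which encodes the activin A subunit, had 4161 and 4307 CPM at 24 h off drug, against 10.4 and 9.33 CPM on drug. Its log2 fold change was 8.74 ± 0.07. STC1, a secreted glycoprotein gene, had 729 and 705 CPM at 24 h, against 0.118 and 0.412 CPM on drug. Its log2 fold change was 11.41, and leaving out on-drug replicate 1 or 2 gave 10.74 or 12.46. VEGFA, the angiogenic factor, had 447 and 439 CPM at 24 h, against 54.9 and 52.5 CPM on drug. GDF15, a stress-induced member of the TGF-beta family, had 1661 and 1499.5 CPM at 24 h, against 228 and 228 CPM on drug. HGF, the ligand of the receptor MET, had 102 and 97.7 CPM at 24 h, against 18.1 and 14.7 CPM on drug. BMP6 rose 6.02-fold, BMP2 4.82-fold and TGFB1 3.54-fold. FST, which encodes the activin antagonist follistatin, rose 24.9-fold to 13.3 and 14.1 CPM. In all, 21 of 33 tested were higher and 6 lower, with a median of 1.02, and 9 more were below the filter. As with the cytokines, a member silent on drug passes the filter only where it is high, so this count is partly fixed by the filter. KITLG, GDF11 and VEGFB were among the lower ones, at -1.31 ± 0.16, -1.13 ± 0.05 and -0.77 ± 0.07.

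**Figure D2:**
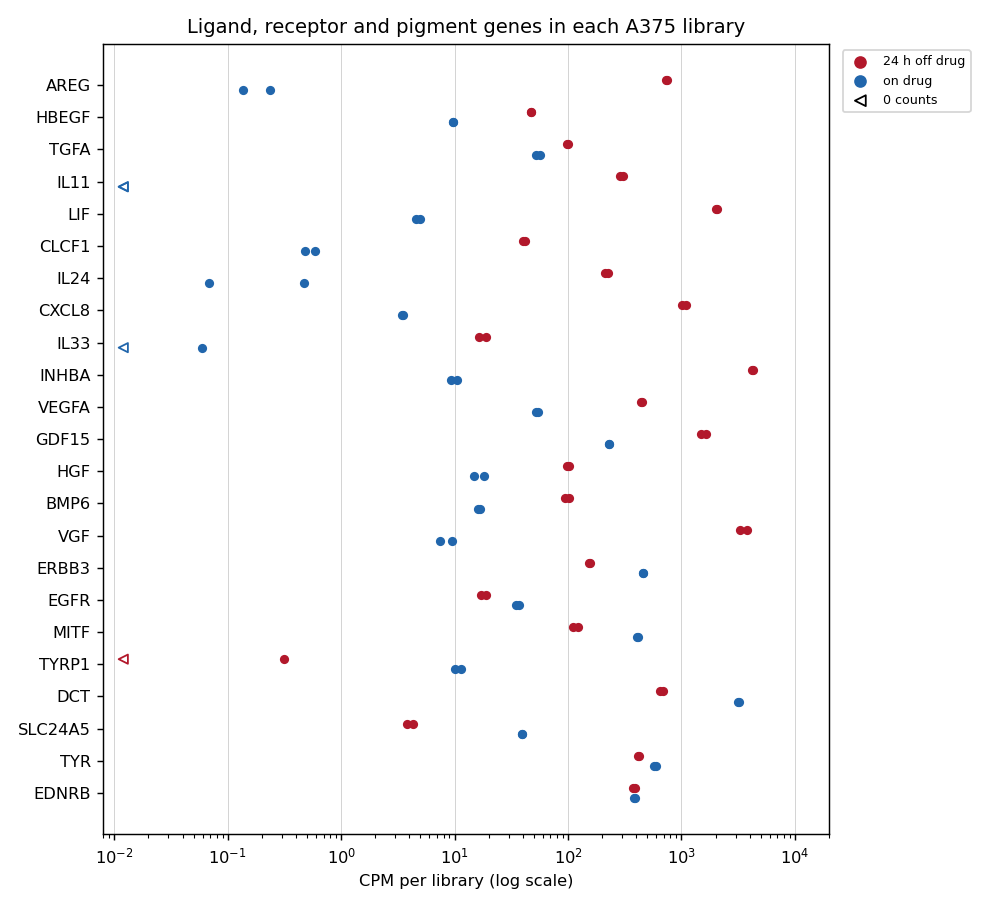
CPM of 23 genes on a log scale, with 1 point per library, red for 24 h off drug above blue for on drug in each row, and open triangles for 0 counts. The ligand genes from AREG to VGF have both red points right of both blue points, while ERBB3, EGFR and the pigment genes down to TYR have them to the left, and EDNRB overlaps.

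Prostaglandin synthesis genes were mostly higher. PTGS1 and PTGS2 encode the cyclooxygenases that start prostaglandin synthesis. PTGS1 had 526 counts at 24 h and 1 on drug, a ratio of 601 (counting interval 107 to 23778), and PTGS2 had 62.98 and 70.5 CPM at 24 h, against 4.43 and 3.64 CPM on drug. PTGES, the prostaglandin E synthase gene, had 50.7 and 38.8 CPM at 24 h, against 0.708 and 1.30 CPM on drug, and the phospholipase gene PLA2G4A, whose enzyme releases their substrate, rose 2.52-fold. HPGD, which encodes the enzyme that breaks prostaglandins down, fell 3.63-fold, with 4.90 and 5.99 CPM at 24 h, against 19.4 and 19.7 CPM on drug. Of 12 members tested 7 were higher and 3 lower, with a median of 0.44. Another 5 were below the filter, which a member silent on drug passes only where it is high.

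Of 24 genes known from ERK signalling in neurons that the table holds, 9 were below the filter. The 15 tested were called higher, with a median log2 fold change of 2.42, but as with the cytokines a member silent on drug passes the filter only where it is high, so this count is partly fixed by the filter. VGF (ENSG00000128564, chromosome 7, 101162509 to 101165593), a precursor of secreted neuropeptides, had 3758 and 3306 CPM at 24 h off drug, against 9.56 and 7.41 CPM on drug. ARC, an activity-regulated gene of synapses, had 40.7 and 35.4 CPM at 24 h and 0 counts on drug, at least 404-fold higher. HOMER1, a synaptic scaffold gene, rose 5.92-fold, RGS16, which shortens G protein signalling, rose 9.04-fold, and the neurofilament gene NEFL had 20.2 and 25.1 CPM at 24 h, against 5.49 and 5.62 CPM on drug. GEM, a small GTPase gene outside the lists, had 1895 and 1901 CPM at 24 h, against 4.60 and 3.77 CPM on drug. VGF is printed for the cAMP response element TGACGTCA at 79 bases before its start and the E-box CACGTG at 54 bases, both in capitals. CACGTG stands in 7.435% of the promoters searched. Its stretch is RefSeq's, GRCh38.p14, chr7:101165570-101165819, minus strand.
VGF: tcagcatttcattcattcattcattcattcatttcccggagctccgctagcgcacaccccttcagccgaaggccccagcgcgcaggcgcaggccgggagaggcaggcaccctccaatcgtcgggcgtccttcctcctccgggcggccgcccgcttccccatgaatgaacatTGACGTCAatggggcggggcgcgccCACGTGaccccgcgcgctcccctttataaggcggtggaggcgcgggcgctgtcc

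Matrix genes and the proteases that cut matrix were mostly higher. Of 27 proteases and inhibitors tested, 20 were higher and 6 lower, with a median of 1.15. Another 9 were below the filter, which a member silent on drug passes only where it is high. TIMP1, an inhibitor of metalloproteases, had 1089.8 and 1035 CPM at 24 h, against 77.7 and 69.4 CPM on drug. TIMP2 had 96.5 and 94.3 CPM at 24 h, against 235 and 230.3 CPM on drug. SERPINE2, which inhibits plasminogen activators, had 3162 and 3073 CPM at 24 h, against 977 and 924 CPM on drug. PLAT, the tissue activator itself, had 719 and 662 CPM at 24 h, against 312 and 310.4 CPM on drug. The collagenase gene MMP1 and the aggrecanase gene ADAMTS4 rose too: MMP1 had 8.99 and 7.02 CPM at 24 h, against 0.0590 and 0.137 CPM on drug. ADAMTS4 had 30.7 and 24.4 CPM at 24 h, against 0.472 and 0.206 CPM on drug. MMP2 and MMP14, a gelatinase gene and that of its membrane activator, were lower at -0.56 ± 0.05 and -0.62 ± 0.12. So the metalloprotease genes did not all move one way. Among 40 integrins, laminins and matrix genes 27 were higher and 8 lower, with a median of 0.59. TGFBI, which encodes a secreted adhesion protein, had 160.1 and 139.99 CPM at 24 h, against 14.5 and 11.04 CPM on drug. SPARC had 1876 and 1779 CPM at 24 h, against 649 and 615 CPM on drug, and the fibronectin receptor subunit ITGA5 had 505 and 477 CPM at 24 h, against 76.3 and 74.1 CPM on drug. ITGB8 and ITGB3 rose 9.35-fold and 4.96-fold. FN1, the ligand of that receptor, had 119 and 116 CPM at 24 h, against 141 and 129 CPM on drug, a fall whose call was lost without on-drug replicate 1 (adjusted p = 0.132), in the fit of all 16 libraries and with DESeq2, and ITGA9 and THBS1 fell 3.01-fold and 2.71-fold. COL5A3, a fibrillar collagen gene outside the list, had 93.4 and 100.3 CPM at 24 h, against 0.354 and 0.274 CPM on drug.

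Receptor tyrosine kinases outside the EGF receptor family changed in both directions, 14 of 28 higher and 9 lower, beside 36.2% and 36.3% of all genes. TIE1, best known from endothelium, had 27.6 and 24.3 CPM at 24 h, against 0.236 and 0 CPM on drug. FGFR1, IGF1R and MET rose 2.12-fold, 1.89-fold and 1.56-fold. The collagen receptor gene DDR2 had 61.9 and 66.8 CPM at 24 h, against 234 and 216 CPM on drug. The median of this list was 0.40. Another 12 members were below the filter, which a member silent on drug passes only where it is high.

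Pigment genes were mostly lower. Of 27 melanocyte factors and pigment genes tested (12 more were below the filter), 18 were lower and 4 higher, with a median of -0.72. MITF (ENSG00000187098, chromosome 3, 69739435 to 69968337), the lineage regulator, had 111 and 123 CPM at 24 h off drug, against 415 and 405 CPM on drug. TYRP1, a melanin enzyme gene, had 5 counts in all at 24 h, with 0.314 and 0 CPM at 24 h, against 10.03 and 11.3 CPM on drug. Its log2 fold change of -5.80 was -10.05 without 24 h replicate 1 and -5.03 without 24 h replicate 2. SLC24A5, a melanosomal exchanger gene, had 3.77 and 4.28 CPM at 24 h, against 38.9 and 39.3 CPM on drug. PMEL, which forms the fibrils that hold melanin, had 71.5 and 67.3 CPM at 24 h, against 207 and 204 CPM on drug. PMEL overlaps CDK2, which rose 2.08-fold, so their counts may be shared. TYR, the rate-limiting enzyme of melanin synthesis, fell to 419 and 415 CPM at 24 h, against 573 and 593 CPM on drug. The upstream factors SOX10 and PAX3 did not pass the test, with log2 fold changes of -0.04 ± 0.05 and -0.02 ± 0.08, and neither did the receptor gene EDNRB. A few members rose: S100A1, a calcium-binding protein gene, had 952 and 891 CPM at 24 h, against 86.8 and 89.9 CPM on drug. MC1R, the melanocortin receptor gene, had 21.6 and 23.3 CPM at 24 h, against 7.26 and 6.72 CPM on drug. BEST1, outside the list, fell 10.04-fold. SLC24A5 is shown because its promoter holds TCACATG, the E-box form that MITF is known to bind, 16 bases before the start, in capitals on the strand printed. Of the 27 members 22 had a promoter in the table, and 4 of these 22 (EDNRB, GPNMB, SLC24A5 and TYR) hold those letters, 18.182%, against 3.395% of all promoters searched. The list was picked as pigment genes and the letters as a form that MITF binds, so this share is a description of sequence and no support. Shares of other motifs in this and other lists are not given here. The stretch is RefSeq's, GRCh38.p14, chr15:48120740-48120989, plus strand.
SLC24A5: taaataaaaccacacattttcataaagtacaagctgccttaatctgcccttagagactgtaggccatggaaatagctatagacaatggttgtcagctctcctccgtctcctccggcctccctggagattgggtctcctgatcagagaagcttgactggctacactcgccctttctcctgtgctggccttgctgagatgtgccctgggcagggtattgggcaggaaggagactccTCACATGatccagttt

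Genes of the low-MITF and neural crest states, which are known to rise as melanoma cells lose pigment, were higher in 17 of 27 cases and lower in 8, with a median of 0.50. Another 9 were below the filter, which a member silent on drug passes only where it is high. TNFRSF12A, the TWEAK receptor gene, had 214 and 209 CPM at 24 h, against 9.56 and 10.3 CPM on drug. NT5E, the surface enzyme that makes adenosine, had 87.8 and 86.9 CPM at 24 h, against 5.49 and 5.35 CPM on drug. VIM, the intermediate filament gene, had 3478 and 3305 CPM at 24 h, against 1567 and 1490.5 CPM on drug. ABCB5, a transporter gene used as a marker of melanoma subpopulations, fell 13.03-fold, and PDGFRA fell 3.97-fold. Factors of the epithelial to mesenchymal switch crossed over within their families. SNAI1 had 116 and 107 CPM at 24 h, against 19.8 and 21.1 CPM on drug, whereas SNAI2 had 31.2 and 29.6 CPM at 24 h, against 137 and 135 CPM on drug. ZEB1 had 129 and 145 CPM at 24 h, against 44.8 and 41.6 CPM on drug, whereas ZEB2 had 45.5 and 45.4 CPM at 24 h, against 163 and 157 CPM on drug. In melanocytes SNAI2 and ZEB2 are known as lineage genes. Of 15 EMT factors and cadherins tested (15 below the filter) 6 were higher and 7 lower, beside 36.2% and 36.3% of all genes. Their median was 0.28, and ESRP1, an epithelial splicing factor gene, fell 16.4-fold.

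The cell cycle lists had medians near 0 against on drug, and their counts stand beside 36.2% of all genes higher and 36.3% lower. Of 29 genes of G1 control 14 were higher and 10 lower, with a median of 0.04. CCND1, which encodes cyclin D1, had 310.2 and 307 CPM at 24 h, against 33.1 and 29.9 CPM on drug. CDKN1A, which encodes the inhibitor p21, had 465 and 447 CPM at 24 h, against 158 and 162 CPM on drug, so both rose. Among 42 DNA replication genes 16 were higher and 13 lower, none by 2-fold, with a median of 0.06. MCM7, a helicase subunit gene, had 404 and 388 CPM at 24 h, against 283 and 279 CPM on drug. MCM3, another, had 211 and 222 CPM at 24 h, against 312 and 314 CPM on drug. Mitosis genes were lower in 23 of 48 cases and higher in 15, with a median of -0.10. KIF20A, a mitotic kinesin gene, had 87.05 and 86.6 CPM at 24 h, against 136 and 131 CPM on drug. CENPF, a kinetochore gene, had 251 and 275 CPM at 24 h, against 459 and 472 CPM on drug. CDK1, the mitotic kinase, had 173 and 173 CPM at 24 h, against 119 and 117 CPM on drug. Within the mitosis list the directions were mixed.

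Genes of cell death and the p53 response also moved both ways, as all genes did, with 36.2% higher and 36.3% lower. MCL1 (ENSG00000143384, chromosome 1, 150574551 to 150579738), a survival gene of the BCL2 family, had 2464 and 2416 CPM at 24 h, against 217 and 219 CPM on drug. BCL2A1, another, had 111 and 104 CPM at 24 h, against 32.9 and 30.7 CPM on drug. BCL2 itself fell 2.99-fold. BMF, which encodes a pro-death BH3-only protein, had 3.14 and 2.74 CPM at 24 h, against 23.3 and 19.8 CPM on drug. Of 17 family members tested 8 were higher and 8 lower, with a median of -0.10. For 27 p53 target genes 15 were lower and 8 higher, with a median of -0.47. TP53INP1 fell 11.04-fold, and SESN2 3.52-fold, while PLK3 rose 11.7-fold and TNFRSF10B, a death receptor gene, 2.60-fold.

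**Figure D3:**
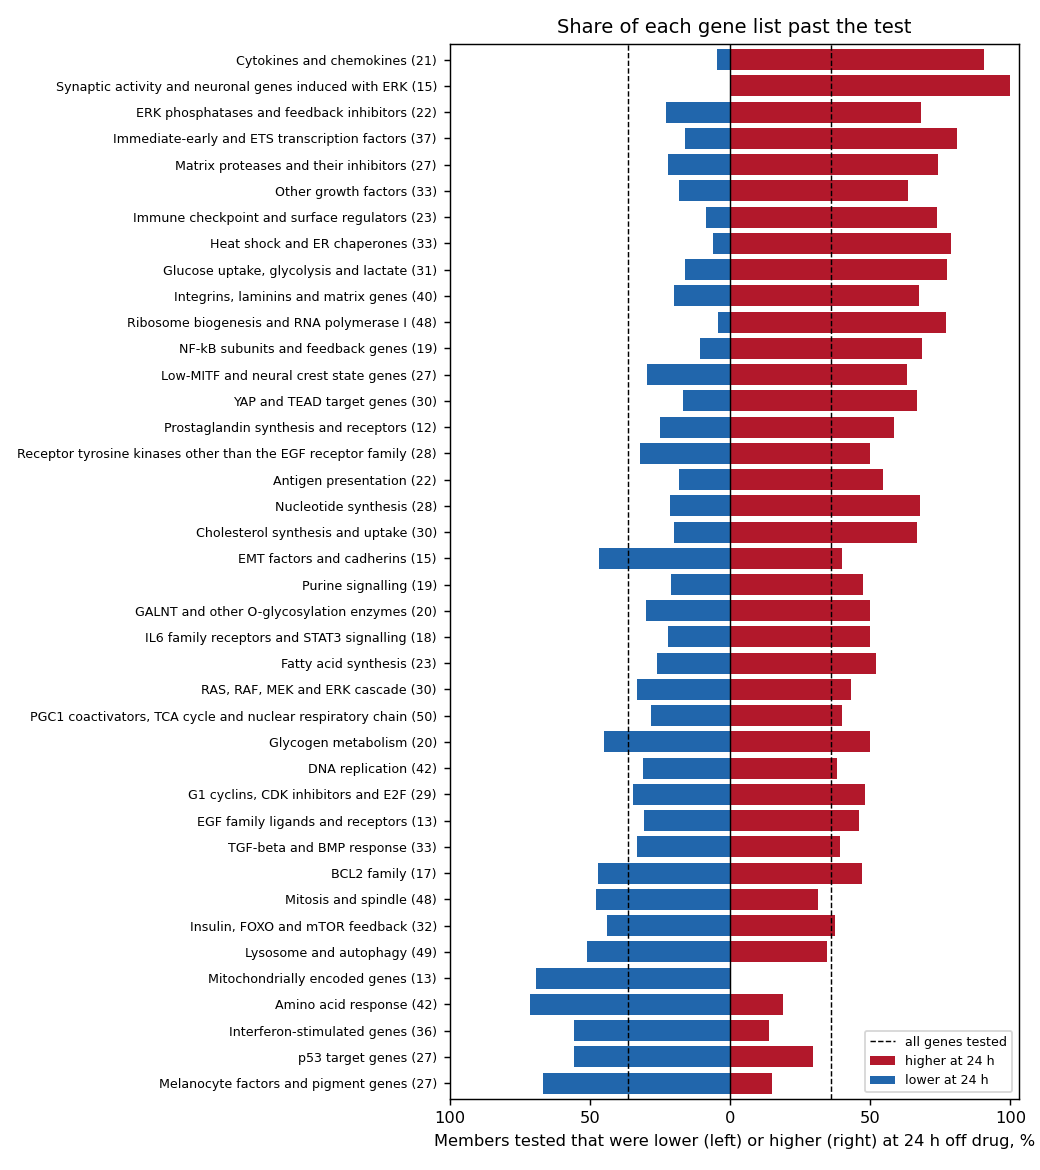
Share of the tested members of each of 40 gene lists that were lower (blue, leftward) or higher (red, rightward) at 24 h off drug, with the number tested in brackets, ordered by median log2 fold change, and dashed lines at 36.3% lower and 36.2% higher for all genes. Ribosome biogenesis genes, all of them above the filter, have 37 of 48 higher, and the amino acid response has 30 of 42 lower. The bars leave out members below the filter, among them 20 cytokines, 9 synaptic genes, 9 growth factors and 12 receptor tyrosine kinases. A member silent on drug passes the filter only where it is high.

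Most members of the glycolysis, cholesterol and nucleotide lists were higher at 24 h. Glycolysis genes were higher in 24 of 31 cases and lower in 5 (3 with DESeq2), with a median of 0.62. PFKFB4, which makes the activator of phosphofructokinase, had 175 and 171 CPM at 24 h, against 11.6 and 10.8 CPM on drug. It overlaps UCN2 in the table's coordinates. UCN2 rose too, with a log2 fold change of 6.25 and a mean of 109.59 CPM at 24 h, so their counts may be shared. SLC2A3, the glucose transporter GLUT3, had 178 and 173 CPM at 24 h, against 30.8 and 32.2 CPM on drug. HK2 had 249.8 and 258 CPM at 24 h, against 140.3 and 140.1 CPM on drug. PKM, the muscle-type pyruvate kinase gene, had 5103 and 4957 CPM at 24 h, against 3003 and 2993 CPM on drug. Cholesterol synthesis and uptake genes were higher in 20 of 30 cases and lower in 6, with a median of 0.36. 3 were lower without 24 h replicate 1 and 2 with DESeq2. INSIG1, which holds the sterol sensor in the ER, had 579.5 and 515 CPM at 24 h, against 26.4 and 25.2 CPM on drug. MSMO1, a sterol oxidase gene, had 153 and 136 CPM at 24 h, against 31.4 and 29.4 CPM on drug. SREBF1, the fatty acid branch factor, had 25.6 and 23.2 CPM at 24 h, against 59.1 and 59.1 CPM on drug. Fatty acid synthesis genes were higher in 12 of 23 cases and lower in 6, with a median of 0.16. ACSL3, which activates fatty acids, had 1776 and 1845 CPM at 24 h, against 320.4 and 317 CPM on drug. FASN, the synthase gene, had 2068 and 1916 CPM at 24 h, against 947 and 929.8 CPM on drug. Nucleotide synthesis genes were higher in 19 of 28 cases and lower in 6, with a median of 0.36. HPRT1 and PPAT, of purine salvage and synthesis, rose 2.72-fold and 2.08-fold.

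Glycogen genes were split, 10 of 20 higher and 9 lower, with a median of 0.07, beside 36.2% and 36.3% of all genes. PYGB, the brain form of glycogen phosphorylase, had 1879.9 and 1777 CPM at 24 h, against 613 and 587 CPM on drug. GYG2, which primes glycogen chains, had 1.45 and 2.05 CPM at 24 h, against 30.1 and 34.2 CPM on drug. Nuclear genes of the TCA cycle and respiratory chain with their PGC1 coactivators were higher in 20 of 50 cases and lower in 14. Their median was 0.08, and these counts lie near the 36.2% and 36.3% of all genes. PPARGC1A, a coactivator that MITF drives in melanoma, had 60.4 and 55.4 CPM at 24 h, against 110.2 and 107 CPM on drug. Of the 13 mitochondrially encoded genes 9 were lower and 0 higher, at a threshold of 0.05, with a median of -0.34, and 1 was higher without on-drug replicate 1. MT-ND1 had 378 and 368 CPM at 24 h, against 1026 and 820.1 CPM on drug. MT-ND4, of the same complex, had 9447 and 8478 CPM at 24 h, against 9650.3 and 8454 CPM on drug and did not pass the test.

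The amino acid response, the set of transport and synthesis genes that ATF4 controls, was lower in 30 of 42 cases and higher in 8, with a median of -0.37. ATF4 had 162 and 156 CPM at 24 h, against 326 and 313 CPM on drug. SLC1A4, a transporter of serine and neutral amino acids, had 53.2 and 61.1 CPM at 24 h off drug, against 573 and 604 CPM on drug. PSAT1 and PHGDH, of serine synthesis, had 176 and 174 CPM at 24 h, against 502 and 508 CPM on drug, and 179 and 171 CPM at 24 h, against 396 and 387 CPM on drug. CHAC1, SESN2 and NUPR1, known ATF4 targets, fell 4.24-fold, 3.52-fold and 8.32-fold. DDIT3, which encodes CHOP, and TRIB3 went the other way, with rises of 2.35-fold and 1.83-fold. Ribosome biogenesis genes were higher in 37 of 48 cases and lower in 2, with a median of 0.56. The count lower was 1 without 24 h replicate 2 and with DESeq2. RRP12, a factor of ribosomal RNA processing, had 134 and 132 CPM at 24 h, against 57.9 and 55.6 CPM on drug. NCL, which encodes nucleolin, had 1803 and 1784 CPM at 24 h, against 1466 and 1436 CPM on drug. POLR1A, the large subunit of RNA polymerase I, had 117 and 122 CPM at 24 h, against 219 and 219 CPM on drug. Heat shock and ER chaperone genes were higher in 26 of 33 cases and lower in 2, with a median of 0.68. HSPA5, the main ER chaperone gene, had 2594 and 2278 CPM at 24 h, against 625 and 621 CPM on drug. HSP90AB1 had 5052 and 5029 CPM at 24 h, against 2577 and 2525 CPM on drug. DNAJC3 and DNAJB1 were lower, at -0.30 ± 0.05 and -0.13 ± 0.05, and 1 was lower with RLE size factors, with DESeq2, in the fit of all 16 libraries and without any 1 of the 4 libraries. The near-identical genes HSPA1A and HSPA1B may share reads.

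Lysosome and autophagy genes were lower in 25 of 49 cases and higher in 17, with a median of -0.24. CTSL, a cathepsin gene, had 759 and 723 CPM at 24 h, against 76.1 and 72.6 CPM on drug, and CTSB had 724 and 692 CPM at 24 h, against 289 and 296 CPM on drug. ASAH1, of lysosomal lipid breakdown, fell 2.23-fold. In the insulin, FOXO and mTOR list 12 of 32 were higher and 14 lower, with a median of -0.12, beside 36.2% and 36.3% of all genes. PIK3R3 and PIK3R1, which encode regulatory subunits of PI3 kinase, fell 5.94-fold and 2.16-fold, and IGFBP3, which binds insulin-like growth factors, had 428 and 409.6 CPM at 24 h, against 14.9 and 13.7 CPM on drug.

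Interferon-stimulated genes were lower in 20 of 36 cases and higher in 5, with a median of -0.39, and 11 more were below the filter. MX2 had 46.8 and 45.9 CPM at 24 h, against 108 and 106 CPM on drug. IFIT3 had 1.82 and 2.57 CPM at 24 h, against 8.20 and 8.64 CPM on drug. STAT2 had 18.7 and 17.7 CPM at 24 h, against 29.9 and 33.8 CPM on drug. ISG20 had 54.8 and 49.2 CPM at 24 h, against 3.13 and 3.64 CPM on drug. The IFIT genes lie inside the coordinates of LIPA, whose log2 fold change was -0.43 ± 0.06. Antigen presentation genes were higher in 12 of 22 cases and lower in 4, with a median of 0.37, and 7 more were below the filter. The count lower was 2 without on-drug replicate 1 or 24 h replicate 1, and 1 with DESeq2. HLA-B had 149 and 141 CPM at 24 h, against 59.1 and 56.2 CPM on drug. Reads of similar HLA genes may be divided between them. Checkpoint and surface regulators were higher in 17 of 23 cases and lower in 2 (1 with DESeq2 and in the fit of all 16 libraries), with a median of 0.71. Another 8 were below the filter, which a member silent on drug passes only where it is high. CD276, a B7 family gene, had 414 and 385 CPM at 24 h, against 127 and 125 CPM on drug. CD55, an inhibitor of complement, had 323 and 314 CPM at 24 h, against 69.9 and 65.2 CPM on drug. CD274, which encodes PD-L1, had 1.76 and 1.97 CPM at 24 h, against 0.826 and 0.755 CPM on drug. CD52 had 14.02 and 12.9 CPM at 24 h and 0 counts on drug, at least 142-fold higher. TNFRSF14 fell 7.97-fold. ICOS, a T cell gene by its usual setting, had 0.377 and 0.685 CPM at 24 h, against 10.97 and 11.7 CPM on drug.

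In the TGF-beta and BMP response 13 of 33 genes were higher and 11 lower, near the 36.2% and 36.3% of all genes, with a median of -0.03. The ID genes, targets of BMP signalling that block differentiation factors, split: ID1 had 88.6 and 78.98 CPM at 24 h, against 16.7 and 18.04 CPM on drug, whereas ID3 had 24.4 and 19.2 CPM at 24 h, against 104 and 101 CPM on drug. PMEPA1, a TGF-beta target that dampens the pathway, had 382 and 365 CPM at 24 h, against 16.5 and 15.02 CPM on drug. YAP and TEAD targets were higher in 20 of 30 cases and lower in 5, with a median of 0.49. The usual targets CTGF and AMOTL2 fell 2.40-fold and 10.6-fold, and AXL, which also stands in other lists, had 20.7 and 21.1 CPM at 24 h, against 0.118 and 0.617 CPM on drug. Among 20 GALNT and other O-glycosylation enzymes tested, with 6 more below the filter, 10 were higher and 6 lower (3 with DESeq2). Their median was 0.25. GALNT3 had 0.189 and 0.0856 CPM at 24 h, against 22.89 and 22.02 CPM on drug, and its log2 fold change of -7.18 was -7.87 without 24 h replicate 1, while GALNT2 and ST3GAL1 rose 2.65-fold and 5.60-fold. Of 19 purine signalling genes tested (7 more were below the filter) 9 were higher and 4 lower (2 with DESeq2), with a median of 0.26. P2RX7, an ATP-gated channel gene, had 15.9 and 15.2 CPM at 24 h, against 197 and 202 CPM on drug.

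Of the 40 genes with the largest changes, those not yet described had these levels. CDCP1, a surface substrate of SRC kinases, had 313 and 316 CPM at 24 h, against 0.531 and 0.206 CPM on drug, and its log2 fold change was 9.65, or 10.51 when on-drug replicate 1 was left out. SLC12A8, a transporter gene, had 666 counts at 24 h and 1 on drug, a ratio of 761 (counting interval 136 to 30096). RAC2, a GTPase gene usual in blood cells, had 483 counts and 1, a ratio of 552 (counting interval 98.6 to 21838), and the tight junction gene CLDN4 had 447 and 1, a ratio of 511 (counting interval 91.2 to 20214). On the falling side TRIM2, a ubiquitin ligase gene, had 24.3 and 27.8 CPM at 24 h, against 322 and 321 CPM on drug. STK32A, a kinase gene, had 3.90 and 3.59 CPM at 24 h, against 57.998 and 61.1 CPM on drug. MAP2K6, which activates the kinase p38, had 1.89 and 1.20 CPM at 24 h, against 16.6 and 16.9 CPM on drug. NCOA5, a coactivator gene, had 3.27 and 3.94 CPM at 24 h, against 41.4 and 44.5 CPM on drug. MAP2, a microtubule-binding protein gene of neurons, fell 12.4-fold, and KIAA1456 fell 10.05-fold. The noncoding genes RP11-1055B8.3 and RP11-80F22.9 fell 22.91-fold and 17.8-fold.

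The times around 24 h were compared in the same fit. Between 24 h and 6 h off drug 10080 genes, 69.8% of those tested, were called, 5133 higher at 24 h and 4947 lower. Between 24 h and 48 h 4318 were called, 29.9%, with 2270 higher at 24 h and 2048 lower. Of the second set, 153 were at least 2-fold higher at 24 h and 214 at least 2-fold lower. List counts against 6 h or 48 h are to be read beside the counts of all 14449 genes higher and lower at 24 h. Within the cell cycle the lists differed. Of 48 mitosis genes 40 were higher at 24 h than at 6 h, and 37 were lower than at 48 h. KIF20A had 136 and 131 CPM on drug, 29.4 and 28.5 CPM at 6 h, 87.05 and 86.6 CPM at 24 h and 105 and 118 CPM at 48 h. Its level was lowest at 6 h, and at 24 h lay between that and the on-drug level. Of 42 DNA replication genes 24 were higher and 8 lower at 24 h than at 6 h, and 13 higher and 3 lower than at 48 h. Of 29 genes of G1 control 11 were higher and 12 lower than at 6 h, and 7 higher and 6 lower than at 48 h. The G1 counts against 6 h lie near the shares of all genes, 5133 higher and 4947 lower of 14449. Of 48 ribosome biogenesis genes 41 were lower at 24 h than at 6 h, and 9 lower and 3 higher than at 48 h. RRP12 had 57.9 and 55.6 CPM on drug, 216 and 217 CPM at 6 h, 134 and 132 CPM at 24 h and 122 and 136 CPM at 48 h. Cholesterol genes were higher at 24 h than at 6 h in 24 of 30 cases. INSIG1 had 26.4 and 25.2 CPM on drug, 342 and 307 CPM at 6 h, 579.5 and 515 CPM at 24 h and 350.2 and 345 CPM at 48 h, so it stood highest at 24 h.

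**Figure D4:**
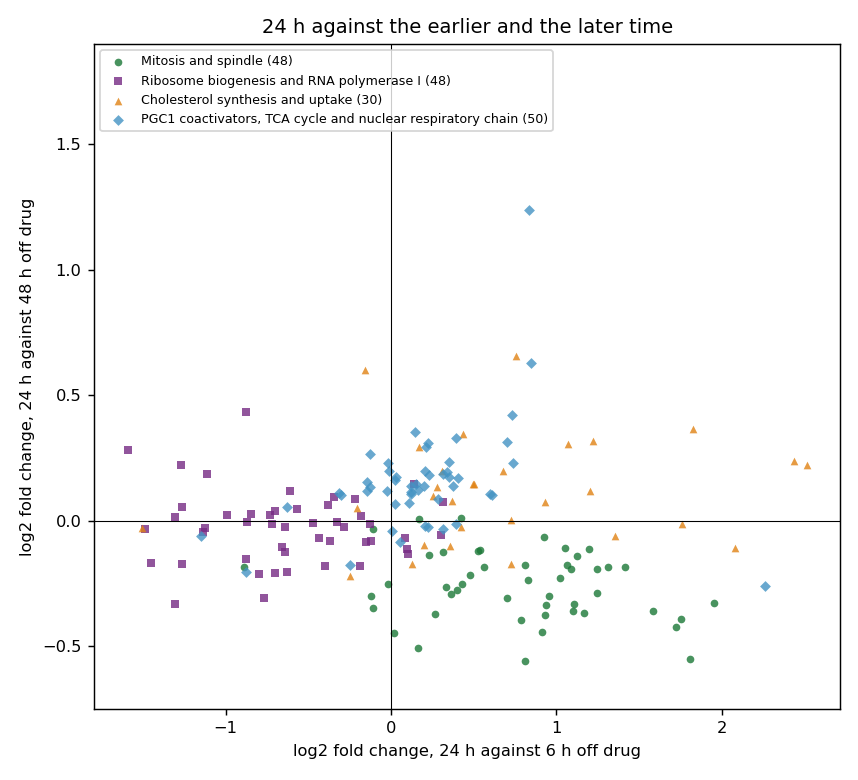
Each point is a gene of 1 of 4 lists, with the log2 fold change of 24 h against 6 h across and of 24 h against 48 h upward. Mitosis genes lie mostly at the lower right (40 of 48 higher than at 6 h, 37 lower than at 48 h), ribosome biogenesis genes at the left (41 of 48 lower than at 6 h) and cholesterol genes at the right (24 of 30 higher than at 6 h), while genes of the TCA cycle and respiratory chain lie mostly in the upper part (24 of 50 higher than at 48 h and 1 lower).

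There were 958 genes with a peak at 24 h, past the test against both 6 h and 48 h, 6.63% of those tested, and 715 with a trough, 4.95%. Without 24 h replicate 1 the 1673 peaks and troughs came to 1054. Of the nuclear genes of the TCA cycle and respiratory chain 19 of 50 peaked at 24 h, of glycolysis genes 11 of 31, of cholesterol genes 10 of 30 and of immediate-early and ETS factors 11 of 37. EGR1 had 5.72 and 5.90 CPM on drug, 349 and 355 CPM at 6 h, 736 and 684 CPM at 24 h and 439 and 451 CPM at 48 h. IL33 had 0.0590 and 0 CPM on drug, 2.05 and 2.33 CPM at 6 h, 18.9 and 16.4 CPM at 24 h and 2.12 and 1.53 CPM at 48 h, the largest peak by the rule for named genes. COL5A3 and COL22A1, 2 collagen genes, were 20.6-fold and 13.7-fold higher at 24 h than at 6 h and 2.82-fold and 2.60-fold higher than at 48 h. IL11, VGF and RAC2 also peaked, 2.60-fold, 2.38-fold and 2.33-fold higher at 24 h than at 48 h. ARAP3, a regulator of ARF GTPases, had 208 and 223 CPM at 24 h, against 99.3 and 102 CPM at 6 h and 65.3 and 70.6 CPM at 48 h. MAPK4, which encodes the atypical kinase ERK4, had 18.04 and 17.1 CPM at 24 h, against 2.31 and 1.58 CPM at 6 h and 8.20 and 8.73 CPM at 48 h. PLXNB3, a semaphorin receptor gene, and SPSB1, a ubiquitin ligase adaptor gene, were 2.30-fold and 2.12-fold higher at 24 h than at 48 h, and SPSB1 was below its on-drug level of 45.4 and 45.5 CPM at every time off drug.

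The 10 largest troughs at 24 h by the rule for named genes were of mixed function. Among integrins, laminins and matrix genes there were 2 troughs and 9 peaks. ITGA2, a collagen-binding integrin gene, had 29.03 and 28.9 CPM on drug, 154 and 149 CPM at 6 h, 65.2 and 68.2 CPM at 24 h and 199.6 and 182 CPM at 48 h. The 24 h value was above the on-drug one and below both other times. NRP1, which encodes neuropilin, a co-receptor of VEGF and semaphorins, had 20.8 and 22.1 CPM at 24 h, against 43.5 and 38.6 CPM at 6 h and 44.98 and 42.5 CPM at 48 h. FLRT3, an adhesion gene, and SORBS2, a scaffold gene, were 2.24-fold and 2.15-fold lower at 24 h than at 48 h. CDC42EP2 and FRMD8 were 2.16-fold and 1.85-fold lower, DCSTAMP 2.19-fold, ZFP69B 1.95-fold, GOLGA7B 1.91-fold (its call against on drug was lost without 24 h replicate 1, adjusted p = 0.0755, and with DESeq2) and the antisense gene TMEM147-AS1 1.91-fold. Some ERK output genes had a trough too: DUSP6 had 29.2 and 30.3 CPM on drug, 334 and 334 CPM at 6 h, 134 and 142 CPM at 24 h and 158 and 151 CPM at 48 h, and FOSL1 had 189.9 and 176 CPM at 6 h, 109 and 95.9 CPM at 24 h and 116 and 130.3 CPM at 48 h. Among the times off drug MITF peaked at 24 h, with 55.8 and 63.8 CPM at 6 h, 111 and 123 CPM at 24 h and 44.1 and 44.3 CPM at 48 h. All of these lay below its on-drug level of 415 and 405 CPM.

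**Figure D5:**
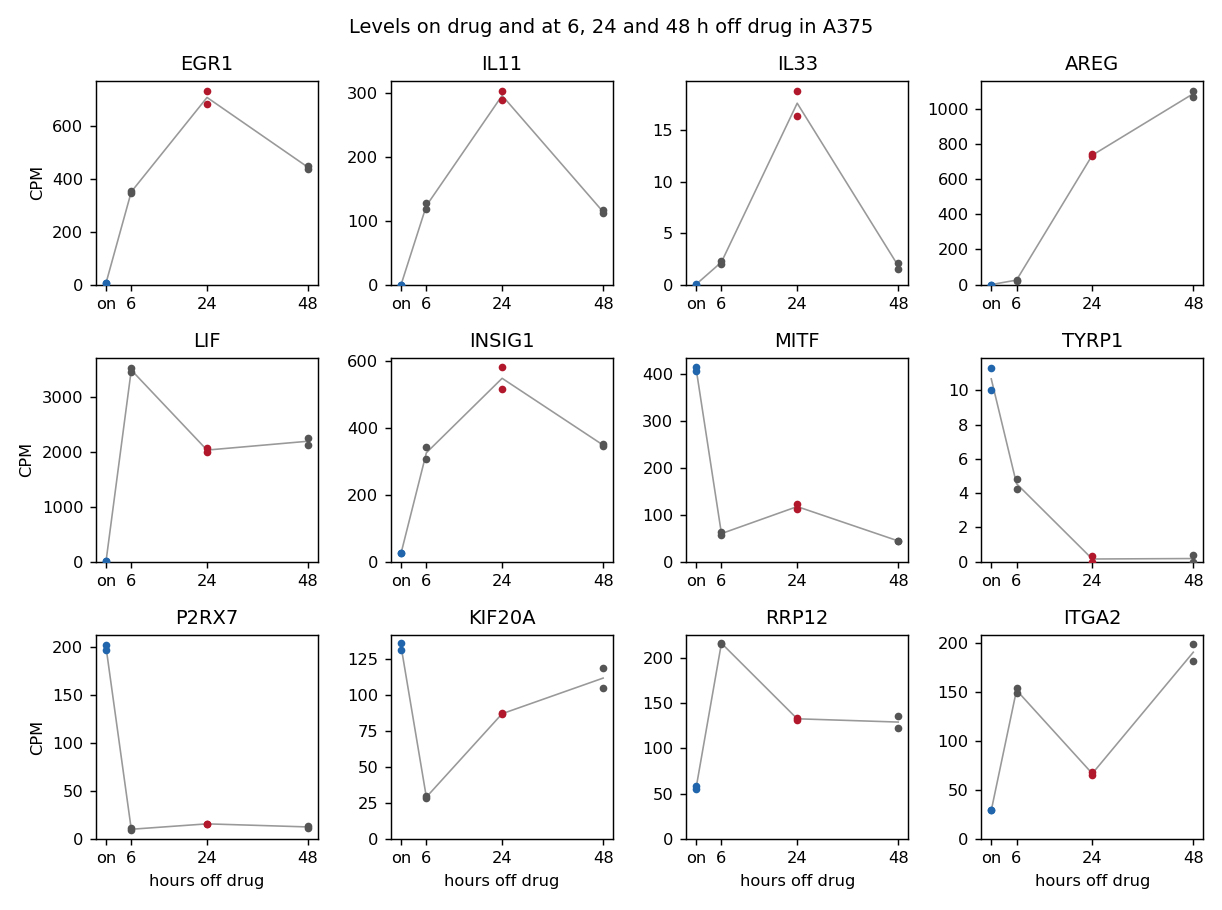
CPM of 12 genes by hours off drug, with 1 point per library (blue on drug, red at 24 h, grey at 6 and 48 h) and a line through the means of 2. EGR1, IL11, IL33 and INSIG1 are highest at 24 h, AREG is highest at 48 h, LIF and RRP12 are highest at 6 h, KIF20A dips at 6 h and ITGA2 dips at 24 h.

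The change at 24 h was then set against that of 451Lu BR, in a fit of all 16 libraries. That line was kept on 1 µM dabrafenib, with trametinib also named in one label, and then given DMSO for 24 h, so line and drug cannot be told apart. The change differed between the lines for 7642 of 15481 genes, 49.4%, with 4240 more positive in A375 and 3402 less. Of the 7642, 2099 were called in the same direction in both lines and 1483 in opposite directions. Respiratory chain and TCA cycle genes were more positive in A375 in 38 of 50 cases and less in 0, with medians of 0.11 in A375 and -0.22 in 451Lu. Pigment genes were less negative in A375, with 20 of 36 more positive and 3 less, and medians of -0.62 and -2.02. Interferon-stimulated genes went the other way, with 9 of 42 more positive in A375 and 18 less. The fit of A375 alone tested 27 of the pigment genes and 36 of the interferon-stimulated genes. The rest passed the filter only in the fit with 451Lu, and a member near 0 in A375 can hardly fall there. The counts of these 2 lists and the pigment medians are therefore partly fixed by the filter. The amphiregulin gene had 712 and 699.6 CPM at 24 h off drug, against 0.221 and 0.128 CPM on drug in A375, and 0.0719 and 0.257 CPM, against 0.341 and 0.0581 CPM, in 451Lu.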

How the data were processed

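Total RNA was sequenced on Illumina instruments, and the deposited table holds raw counts per gene for 30813 Ensembl genes in 16 libraries, 2 per group. Per the submitters' processing notes, the tools were TopHat2 2.1.0 and Bowtie 1.0.0 with GRCh38. The counting program, annotation release and strand setting were not given in the sources used here. Groups were taken from the labels for cell line and time off drug. Counts were tested with edgeR 4.0.16 (limma 3.58.1, R 4.3.3) by the quasi-likelihood F test, with TMM scaling, filterByExpr (minimum count 10, minimum total 15) and Benjamini-Hochberg adjustment at 0.05 over all genes tested, in a fit of the 8 A375 libraries with 4 residual degrees of freedom. The common biological coefficient of variation was 3.19%. The difference between lines was tested in a fit of all 16 libraries, with 8 residual degrees of freedom. CPM are TMM-scaled; each SE is the absolute log2 fold change over the square root of F. A group with 0 counts was given a floor of 3 counts, and a ratio on 1 to 3 counts has an exact 95% interval, for counting error only. Libraries held 12156938 to 16691725 counts in the 2 groups. The scripts were tested on simulated counts.

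The comparison and the 40 gene lists were chosen with earlier results of these data known, so no list is independent support for its own direction. Genes named are the 20 largest rises and 20 largest falls among called genes whose groups did not overlap and whose higher group averaged at least 10 CPM, members of the lists, the 10 largest peaks and 10 largest troughs at 24 h, and the 10 largest differences on each side between lines. Genes of the BRAF neighbourhood, LIPA and UCN2 were added after their values or positions were seen. Some genes that these rules name are not reported here. Alternatives were RLE size factors, no filter, a replicate block, leaving out each library, DESeq2 1.42.0, a test against 1.5-fold, the 4 libraries alone, all 16 libraries, and no mitochondrially encoded genes. Promoter sequences came from RefSeq (GRCh38.p14), the first start listed where a gene had several.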

Additional observations from a re-analysis of the deposited data

Results flagged for a closer look

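The change at 24 h differed between A375 and 451Lu for 7642 genes, by the test of the difference in edgeR's fit of all 16 libraries. Of these, 2625 were called in A375 and not in 451Lu, 1322 in 451Lu and not in A375, and 113 in neither. The 19 genes named here are from the 10 on each side with the largest differences under the rule for named genes, and each value is the log2 change in A375 minus that in 451Lu. Both lines were taken at the same time off drug, but the dabrafenib doses differed, the labels of 451Lu do not settle whether trametinib was given, and no cause was tested. CPM here are scaled over all 16 libraries.

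On the side more positive in A375, the difference was 12.13 for AREG, 9.19 for IL11, 7.63 for INHBA and 7.49 for IL33. INHBA had 3996 and 4121 CPM at 24 h off drug, against 9.78 and 8.72 CPM on drug in A375, and 1.51 and 1.72 CPM, against 1.29 and 0.232 CPM, in 451Lu. The other genes on that side were ARC at 9.94, PTPN22, a phosphatase gene of lymphocytes, at 8.67, PTPRN, a secretory granule gene, at 8.19, SCML4 at 8.14 and GRAMD1B, a sterol transfer gene, at 7.05. IL11, ARC, PTPN22 and SCML4 had 0 counts in A375 on drug, so their fitted changes in A375 are not bounds. PTPN22 had 1.57 and 1.47 CPM at 24 h off drug in A375, and it met the 10 CPM rule through 451Lu. SCML4 had 0.121 and 0 CPM at 24 h off drug, against 0 and 0 CPM on drug in A375, and 1.44 and 2.49 CPM, against 66.3 and 67.1 CPM, in 451Lu.

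On the side less positive in A375, SPP1, which encodes osteopontin, differed by -8.76. It had 24.7 and 26.4 CPM at 24 h off drug, against 33.2 and 32.2 CPM on drug in A375, and 301 and 233 CPM, against 0.817 and 0.755 CPM, in 451Lu. The potassium channel genes KCNJ2 and KCNN4 differed by -7.70 and -6.03, the membrane protein gene TMEM178B by -6.51, the proteoglycan gene SRGN by -6.34 and the adhesion gene NRCAM by -6.32. The protease-like gene PRSS35 differed by -6.31, the zinc finger gene GLIS3 by -6.24, the inflammasome gene NLRP3 by -5.91 and the interferon-stimulated gene IFIT1 by -5.43. KCNN4 rose in both lines, and IFIT1 fell in A375 and rose in 451Lu, where it had 46.2 and 49.3 CPM at 24 h off drug, against 4.90 and 5.98 CPM on drug. KCNJ2 had 0 and 0 CPM at 24 h off drug, against 0.276 and 0.320 CPM on drug in A375, and 20.7 and 18.1 CPM, against 3.07 and 2.84 CPM, in 451Lu, and its 0 counts at 24 h in A375 mean that its fitted change there is not a bound. NRCAM, GLIS3 and KCNN4 had 0 counts in 451Lu on drug, so their fitted changes there are not bounds.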

How the results depend on the processing

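The 10486 genes called between 24 h off drug and on drug came to between 9413 and 9966 without any 1 of the 4 libraries, and to 8436 with DESeq2. Tested against a change of 1.5-fold, 4257 passed. The other alternatives (RLE size factors, no filter, the 4 libraries alone, all 16 libraries, and no mitochondrially encoded genes) gave 10299 to 10723. The count against 6 h came to between 9037 and 9517 without 1 library, and against 48 h to between 2983 and 3983, with 2223 for DESeq2 in place of 4318. The 1673 peaks and troughs came to between 1054 and 1704 without 1 library, the lowest without 24 h replicate 1, and the difference between lines to between 6712 and 7153. The shift of each gene's log2 fold change from the main fit had a median over genes of at most 0.0359 in size under every alternative. The labels state no pairing by replicate number. Deviations of same-numbered libraries on drug and at 24 h had a correlation of -0.0434, which with 2 libraries per group cannot exclude a pairing. The fit with replicate number as a block called 10340 genes. Between 24 h and 48 h the correlation was -0.2266, and the block with the 48 h numbers crossed, chosen after seeing the data, called 4680. Of 264 named genes tested, 34 lost their call when tested against 1.5-fold, 11 with DESeq2 and at most 7 without any 1 library. No called gene among them changed direction under these alternatives, and direction was not followed for genes that were not called. Of 80 list counts, 59 moved by over 1.5 times when tested against 1.5-fold and 11 with DESeq2; those moved by another alternative stand beside their lists. Causes were not tested. Counts were also simulated for 14449 genes as a comparison of 24 h against on drug. Of the genes changed in them, 49 of 67 at 1.5-fold, 56 of 63 at 2-fold and 69 of 70 at 4-fold were called. There were 7 false calls among the unchanged genes. Far fewer genes were changed there than the 10486 called in the data. The share of changes missed and of false calls may therefore differ in the real comparison. For genes near 0 on drug the depth limits the size of the change, and intervals cover counting error only.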

Other observations

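Antisense and lincRNA genes had negative medians at 24 h. The shares given here were not tested against each other. Of 618 antisense genes tested, 295 were lower and 74 higher, with a median log2 fold change of -0.63. Of 638 lincRNA genes, 276 were lower and 120 higher, with a median of -0.46, while of 12424 protein-coding genes 4395 were lower and 4910 higher, with a median of 0.02. Sense intronic genes were balanced, with 23 of 91 lower and 23 higher, and 34 of 120 processed pseudogenes were lower and 19 higher. Level moved with these shares. Among genes of at least 10 CPM on average, 32 of 57 antisense genes were lower and 15 higher, and 32 of 71 lincRNA genes lower and 28 higher (median -0.11), against 3123 and 4173 of 9327 protein-coding genes. Among genes under 2 CPM, 153 of 352 antisense genes were lower and 32 higher, and 148 of 348 lincRNA genes lower and 53 higher (median -0.69), against 379 and 244 of 1083 protein-coding genes. The strand used in counting is not given in the sources used here, so reads of an antisense gene and its partner may be shared, and their part was not tested.

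The high level of BRAF in A375 was shared by its neighbours on chromosome 7. The levels here are from the fit of all 16 libraries, so they differ slightly from those of the fit of A375 alone. The neighbours were looked at after the level of BRAF had been seen. On drug BRAF had a mean of 4406 CPM in A375 and 72.5 CPM in 451Lu, a ratio of 60.8. The adjoining genes ADCK2, NDUFB2 and MRPS33 had 2778, 7165 and 3720 CPM in A375, against 19.3, 123 and 58.6 CPM in 451Lu. AGK, further along, had 511 CPM in A375 and 70.4 CPM in 451Lu. Outside that stretch MKRN1 had a ratio of 3.16, TRIM24 of 0.474 and GSTK1 of 0.526, and the median ratio of 10050 genes was 0.907. At 24 h against on drug in the fit of A375 alone, the log2 fold changes in A375 were 0.21 for BRAF, -0.13 for ADCK2 (a call lost without on-drug replicate 1 or 24 h replicate 2, with DESeq2 and in the fit of all 16 libraries), 0.01 for NDUFB2 and -0.38 for MRPS33. NDUFB2 overlaps both ADCK2 and BRAF in the table's coordinates.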
